A study of Rattus norvegicus with 19 samples.

Results

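The genes described here are those of MHC class II antigen presentation in the rat: RT1-Ba, RT1-Bb, RT1-Da, RT1-Db1, RT1-DMa, RT1-DMb, Cd74 and Ciita. They were found by matching the RefSeq accession of each array probe to a current rat gene table, which gave 10 probes for the 8 genes, of 30367 probes that were not controls. All 8 genes were among the 12789 genes tested. Each was represented by its brightest probe, and the second probes of RT1-Bb and RT1-Db1 are given beside the first.

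MHC class II molecules display peptides of ingested proteins to CD4+ T cells. Dendritic cells, macrophages and B cells carry them as a rule, and many epithelial and tumour cells make them when exposed to interferon gamma. An alpha and a beta chain pair in the endoplasmic reticulum around the invariant chain, Cd74, which is cut away by cathepsins in endosomes so that the DM heterodimer can exchange its last fragment for a peptide. Transcription of the other genes depends on Ciita, a coactivator that binds no DNA itself and is held at the promoters by factors on the X and Y boxes.

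Agilent single-colour arrays were hybridised with RNA of mammary tissue from female rats, 6 samples of normal gland and 13 of carcinoma, each on its own array. All rats were F1 hybrids of the Sprague-Dawley stock and the Copenhagen strain, and the labels do not say which was the mother. Per the labels, rats received no treatment or 4 Gy of 137Cs gamma rays to the whole body, at 0.5 Gy/min and 7 weeks of age. The series title calls the carcinomas radiation-induced. For the normal glands no label gives the exposure, so tumour is compared with gland and not irradiated with unirradiated tissue. Ages at sampling are not given in the sources used here. Because nothing in the labels ties samples to animals, p-values measure the spread between these samples.

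Values are log2 intensities relative to the 75th percentile of the same array, so a level of 0 is that percentile itself. Levels of different probes cannot be set against each other. The comparisons below follow 1 probe, or the difference or correlation of 2 probes, across samples. Whether 2 probes respond equally to a change in RNA was not tested. The 75th percentile differed between groups: its intensity was 295.5 to 673 across the arrays of normal glands and 485 to 1428 across those of carcinomas. The arrays lay on 3 slides, with 3 normal glands and 4 carcinomas on slide 1, 2 and 4 on slide 2, and 1 and 5 on slide 3. Some tissue markers measured differed between the groups. Lower in carcinomas were 11 of 11 adipocyte, 8 of 9 endothelial and 5 of 6 lymph node stroma markers, against 13.2% of all genes. Of 12 epithelial markers 2 were higher, Cdh1 and Esrp1, and 10 did not pass.

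The promoters of 4 members share letters that other promoters rarely hold together, and these stretches are shown with that of RT1-Ba, which holds only part of them. RefSeq windows of 300 bases (assembly GRCr8, 250 before the transcript start and 50 after) were found for 6 of the 8 members, and not for RT1-DMb and Ciita. In each line the capitals mark the X box letters GNNACNGATG, where present, and the Y box letters GATTGG further downstream.
RT1-Ba: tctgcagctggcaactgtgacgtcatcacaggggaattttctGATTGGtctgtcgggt
RT1-Bb: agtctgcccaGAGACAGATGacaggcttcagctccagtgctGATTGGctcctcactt
RT1-Da: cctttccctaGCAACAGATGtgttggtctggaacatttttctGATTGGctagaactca
RT1-Db1: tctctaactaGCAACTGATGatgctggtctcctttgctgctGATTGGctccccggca
RT1-DMa: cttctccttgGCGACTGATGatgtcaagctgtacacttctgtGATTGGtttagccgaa

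These stretches lie at chr20:4576971-4577028 on the plus strand (RT1-Ba), chr20:4604165-4604221 on the minus strand (RT1-Bb), chr20:4515323-4515380 on the plus strand (RT1-Da), chr20:4560228-4560284 on the minus strand (RT1-Db1) and chr20:4712385-4712442 on the minus strand (RT1-DMa). The X box letters are those that 4 members, RT1-Bb, RT1-Da, RT1-Db1 and RT1-DMa, share 31 or 32 bases before the Y box letters, with N where they differ. These 4 match by construction, and all matches are a description. Searched on both strands, the X box letters were found in 2.84% of 33469 RefSeq promoter windows and the Y box letters in 14.8%; the patterns share the letters GAT. X followed by Y on the same strand, with 25 to 40 bases between their first bases, was found in 7 windows (0.0209%). These were the promoters of RT1-Bb, RT1-Da, RT1-Db1, RT1-DMa, RT1-DOb, RT1-Db2 and Ttc29, of which the last 3 were not used to choose the letters. RT1-DOb and RT1-Db2 are class II genes too, but RT1-Db2 is a near copy of RT1-Db1, so its match is not independent of the choice of letters. The spacing of 25 to 40 bases was set after that of the 4 members was seen. The window of RT1-Ba matched the Y letters alone, and that of Cd74 matched neither. Neither gene was used to choose the X letters, so a missing match does not show that an X box is absent.

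All 8 members had a negative log2 change in carcinomas against normal glands, and 1 of the 8, RT1-Db1, passed the test. Over all genes tested, 49.2% had a negative change, 13.2% passed the test as lower and 9.73% as higher, 23% in either direction. The median change was -0.95 over the members and 0.01 over all genes. The share of members called, 12.5%, was thus near that of all genes called lower. No member separated the groups: the range of the carcinomas overlapped that of the normal glands for every one, whereas 2.47% of all genes had groups that did not overlap. In whole tissue, fewer class II-bearing cells and less class II RNA per cell cannot be told apart.

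Among the beta chains, RT1-Db1, the beta chain of the RT1-D molecule, was lower in carcinomas. Its level in normal glands ran from 1.42 to 3.87 with a median of 2.66, and in carcinomas from -0.03 to 3.65 with a median of 1.58. Below the lowest normal gland lay 5 of the 13 carcinomas, and 1 carcinoma, carcinoma 8, lay above the normal median. The mean was 2.81 ± 0.88 (SD, n = 6) in normal glands and 1.54 ± 0.95 (SD, n = 13) in carcinomas, a log2 change of -1.27 ± 0.43 (SE; limma, adjusted p = 0.0368 over all genes) or a 2.41-fold lower level. The call was lost when normal gland 2, 3, 4 or 5 or carcinoma 11 was left out, with adjusted p-values of up to 0.111, and also under quantile normalisation. A second probe of RT1-Db1 changed by -1.08 ± 0.43 (SE) and did not pass (limma, adjusted p = 0.0799 over all probes). The near copy RT1-Db2 has no probe of its own with a matched accession, and whether the RT1-Db1 probes also bind its RNA was not tested.

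RT1-Bb, the beta chain of the RT1-B molecule, had a median of 3.44 in normal glands (2.01 to 4.79) and of 2.38 in carcinomas (1.46 to 5.03). Below the lowest normal gland lay 4 of the carcinomas, and the highest value of all 19 samples was a carcinoma's. The change of -0.88 ± 0.44 (SE) did not pass the test (limma, adjusted p = 0.154). The second RT1-Bb probe changed by -1.06 ± 0.60 (SE; adjusted p = 0.226 over all probes).

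Neither alpha chain passed the test. RT1-Da, the alpha chain of RT1-D, had a median of 2.15 in normal glands (0.86 to 3.50) and of 1.33 in carcinomas (-0.35 to 3.31), a change of -1.03 ± 0.42 (SE; limma, adjusted p = 0.0832). RT1-Ba, the alpha chain of RT1-B, had a change of -1.03 with an SE as large, 1.03 (limma, adjusted p = 0.509). Without normal gland 3 its change was -1.90, without normal gland 5 it was -0.57 and without carcinoma 5 it was -0.61, and it did not pass in any of these. Its levels spread far more widely than those of any other member, from -6.24 to 0.40 in normal glands and from -7.94 to 0.37 in carcinomas. RT1-Ba was well above background on 5 of 6 normal gland arrays and 11 of 13 carcinoma arrays, while every other member probe was so on all 19.

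**Figure D1:**
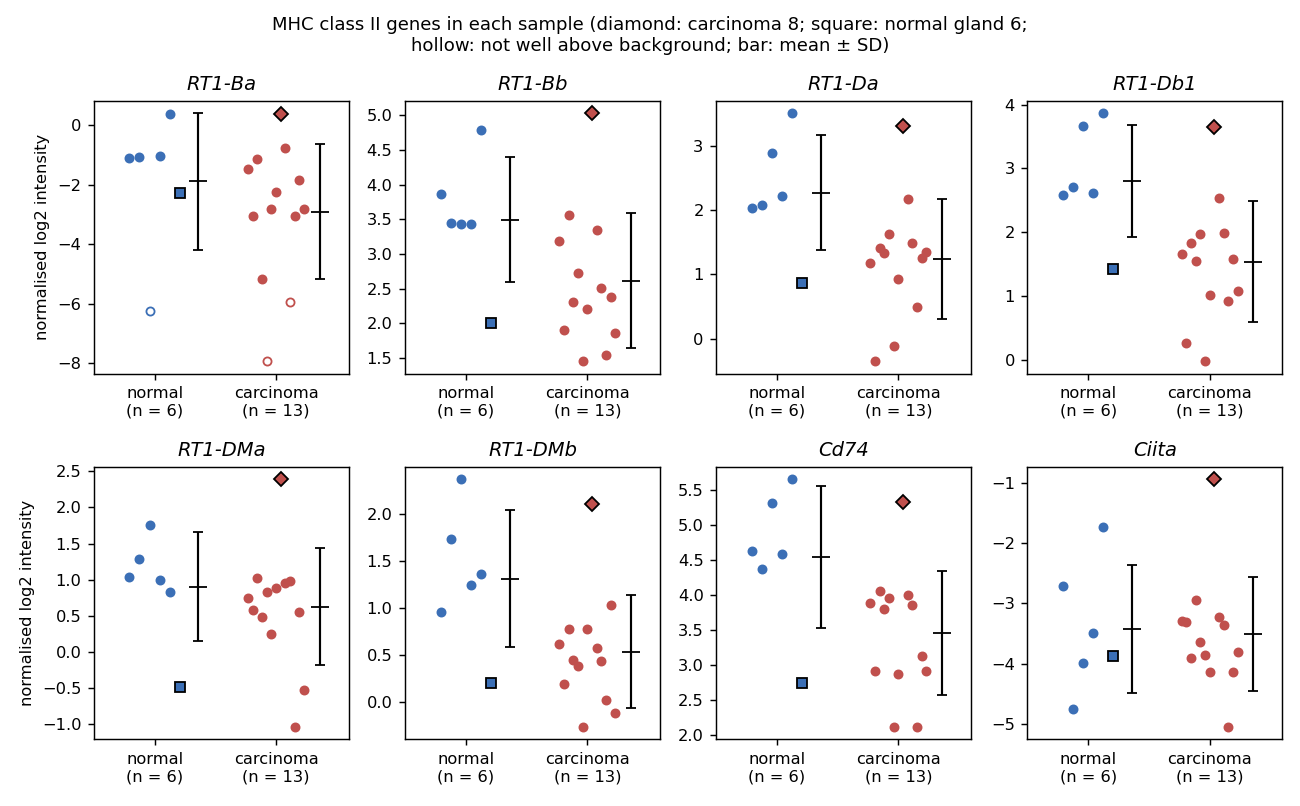
Normalised log2 intensity of the 8 members in each sample (y axis, a separate scale for each gene), with normal glands (n = 6) and carcinomas (n = 13) side by side and bars for the mean ± SD. The groups overlap for every gene, carcinoma 8 (diamond) is the highest carcinoma in all 8 panels, and 3 hollow RT1-Ba points are arrays on which the probe was not well above background.

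The spread of RT1-Ba came from 4 samples, and the RT1-Bb probes set the same 4 samples apart. RT1-Ba stood at -6.24 in normal gland 3, -5.17 in carcinoma 4, -7.94 in carcinoma 5 and -5.95 in carcinoma 10, while the other 15 samples lay between -3.07 and 0.40. In these 4 samples the log2 difference between the second and the first RT1-Bb probe was -0.68 to 0.58. In the other 15 samples the difference was -2.78 to -1.47, so that the ranges did not overlap. The difference between the RT1-Db1 probes showed no such separation, at -1.07 to -0.43 in the 4 samples and -0.78 to -0.31 in the other 15. These samples were set apart after their values were seen, so this is a description with no test. Both groups held such samples, 1 of 6 normal glands and 3 of 13 carcinomas. Some class II chains are highly polymorphic, and Sprague-Dawley rats are an outbred stock. Whether alleles differ where these probes bind was not tested. It bears on any difference of RT1-Ba or RT1-Bb between the groups, and on ratios, correlations and means that include them.

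**Figure D2:**
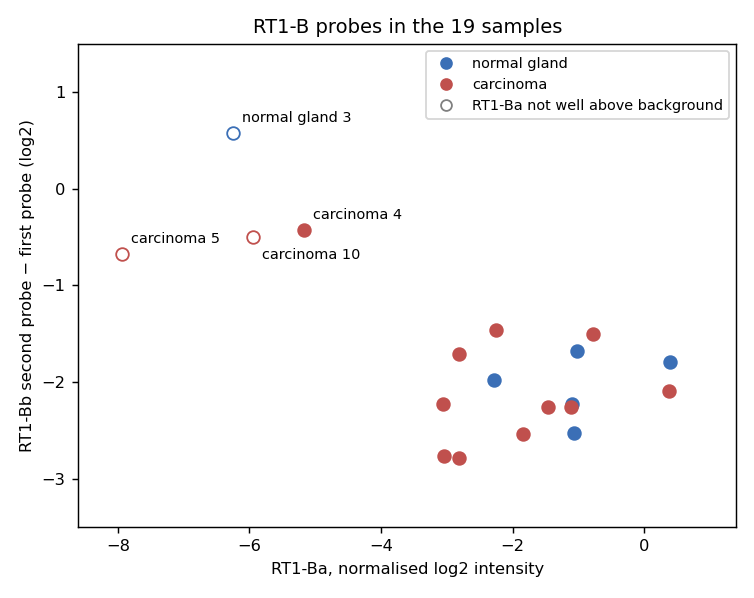
RT1-Ba level (x axis, normalised log2 intensity) against the difference between the second and the first RT1-Bb probe (y axis, log2) in each of the 19 samples, hollow where RT1-Ba was not well above background. Normal gland 3 and carcinomas 4, 5 and 10 lie at the upper left, with RT1-Ba at -5.17 or lower and a probe difference of -0.68 or higher, apart from the other 15 samples.

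Cd74, the invariant chain that guards the peptide groove, had a median of 4.61 in normal glands (2.74 to 5.65) and of 3.80 in carcinomas (2.11 to 5.33). Above the normal median lay 1 carcinoma of 13. The means were 4.54 ± 1.01 (SD, n = 6) and 3.46 ± 0.89 (SD, n = 13), a change of -1.09 ± 0.42 (SE) that did not pass the threshold (limma, adjusted p = 0.0682).

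Neither DM subunit passed the test. RT1-DMb, the DM beta chain, had a median of 1.30 in normal glands (0.21 to 2.37) and of 0.44 in carcinomas (-0.27 to 2.10), a change of -0.77 ± 0.30 (SE; limma, adjusted p = 0.0683). RT1-DMa, the DM alpha chain, had a median of 1.02 in normal glands (-0.48 to 1.76) and of 0.75 in carcinomas (-1.04 to 2.39). Its change was -0.28 ± 0.37 (SE; limma, adjusted p = 0.628), and 2 carcinomas lay above the normal median.

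Ciita, the coactivator on which the others depend, had a median of -3.68 in normal glands (-4.74 to -1.73) and of -3.65 in carcinomas (-5.05 to -0.94). Above the normal median lay 7 of 13 carcinomas, and the change was -0.09 ± 0.46 (SE; limma, adjusted p = 0.916). Its direction turned to positive under quantile normalisation (0.04) and without normal gland 5 (0.25), so no direction is given for Ciita.

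**Figure D3:**
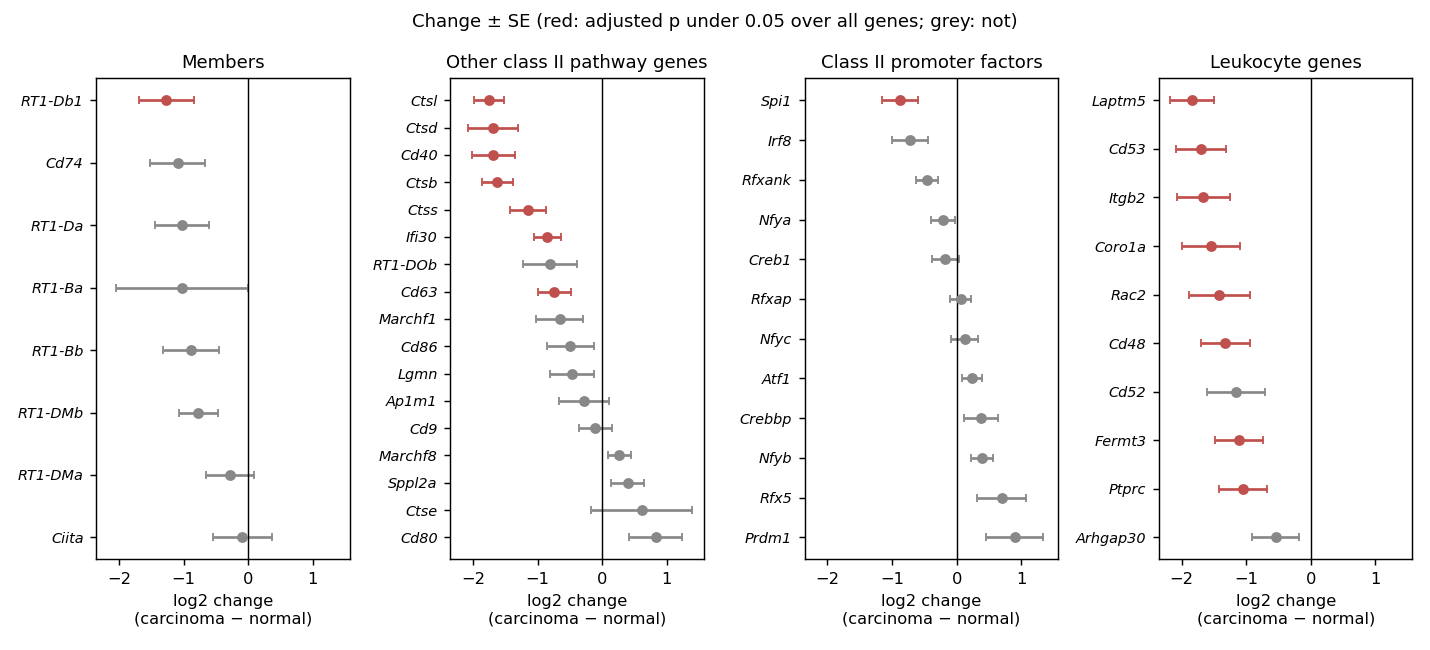
Log2 change of carcinomas against normal glands (x axis, ± SE) for the members, other class II pathway genes, class II promoter factors and leukocyte genes, 1 gene to a row. Red points have an adjusted p under 0.05 over all genes: RT1-Db1 among the members, 7 of 17 other pathway genes, Spi1 among 12 promoter factors and 8 of 10 leukocyte genes.

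A few samples were high or low for most members. Carcinoma 8 was the highest carcinoma for all 8 members, 1.08 to 2.00 above the next carcinoma, and the highest of all 19 samples for RT1-Bb, RT1-DMa and Ciita. Normal gland 6 was the lowest normal gland for 6 members, all but RT1-Ba and Ciita, and normal gland 5 was the highest for another 6, all but RT1-DMa and RT1-DMb. Averaged over the members, each centred on its mean over the 19 samples, carcinoma 8 stood at 1.95 and the other carcinomas at -1.21 to 0.49. Normal gland 6 stood at -0.63, normal gland 5 at 1.63 and the other normal glands at 0.45 to 0.71. The value of 0.45 was that of normal gland 3, which stood at 1.03 when RT1-Ba was left out. Without carcinoma 8, 5 members passed as lower (RT1-Db1, Cd74, RT1-Da, RT1-Bb and RT1-DMb), with changes of -0.90 to -1.44 and a highest adjusted p of 0.0342 (limma). Without normal gland 6, 4 members passed: RT1-Db1, Cd74, RT1-Da and RT1-DMb. With both left out, the same 5 members passed as without carcinoma 8, with changes of -1.12 to -1.72. None of these settings brought RT1-Ba, RT1-DMa or Ciita past the threshold. Over all genes, 12.9% passed as lower without carcinoma 8, 13.4% without normal gland 6 and 12.9% with both left out. Carcinoma 8 and normal gland 6 were singled out after their values were seen. Normal gland 6 is the only normal gland with a letter code in its description. Carcinomas 11, 12 and 13 also carry a letter code, and the other samples carry a number code. All letter-coded samples lay on slide 3. Among the normal glands, gland 6, its code series and its slide therefore cannot be told apart.

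The slides gave different directions. Within slide 1 (3 normal glands and 4 carcinomas) the change of RT1-Db1 was -1.55 and that of Cd74 was -1.06. Within slide 2 (2 and 4) they were -1.97 and -1.92. Within slide 3, whose only normal gland was gland 6, they were 0.42 and 0.73, and 7 of the 8 members had positive changes there. A single normal gland gives slide 3 no spread of its own for that group. With fewer arrays, no member passed within slide 1 or 2, although 5 members on each had an unadjusted p under 0.05 (limma). With slide as a block none passed after adjustment, and 4 had an unadjusted p under 0.05. Array brightness also moved with the groups, as given above. With the log2 75th percentile as a covariate, no member passed and 1.45% of all genes did.

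Several other genes of the pathway were lower in carcinomas. Of 17 other class II pathway genes measured, 7 were lower, none was higher and 10 did not pass, with a median change of -0.66. The share called lower was 41.2%, against 13.2% of all genes. The 3 largest changes were those of Ctsl (-1.75 ± 0.23), Ctsd (-1.69 ± 0.39) and Cd40 (-1.69 ± 0.33; SE, limma, adjusted p of at most 0.00428). Ctsl and Ctsd are lysosomal proteases and Cd40 is the receptor through which helper T cells activate antigen-presenting cells. Ctss, the cathepsin S that trims the invariant chain, changed by -1.16 ± 0.28 (SE; limma, adjusted p = 0.0062). Ifi30, a thiol reductase that opens disulfide bonds of antigens in endosomes, changed by -0.85 ± 0.21 (SE; limma, adjusted p = 0.00663). RT1-DOb, the beta chain of the DM inhibitor DO, changed by -0.81 ± 0.42 (SE; limma, adjusted p = 0.169). The probe of its partner RT1-DOa was well above background on 1 normal gland array and 3 carcinoma arrays and was not tested. The change of Ctss was -1.29, -1.05 and -1.03 within slides 1, 2 and 3. The calls of Ctsd and Ifi30 were lost under quantile normalisation. With array brightness as a covariate, where 1.36% of all genes were called lower, those of Ctsd, Cd40, Ctss and Ifi30 were lost. Ifi30 turned to a positive change within slide 3.

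Of 12 measured genes listed as factors of the class II promoter, 1 was lower, a share of 8.33% against 13.2% of all genes, and none was higher. It was Spi1, a myeloid transcription factor also known as PU.1, with a change of -0.87 ± 0.28 (SE; limma, adjusted p = 0.0289). That call was lost without normal gland 1, 3, 4 or 5. The 3 genes of the RFX complex on the X box did not pass. Their changes were 0.70 ± 0.38 for Rfx5, 0.07 ± 0.16 for Rfxap and -0.46 ± 0.17 for Rfxank (SE; limma, adjusted p of 0.195, 0.81 and 0.0588). The list's median change was 0.10. Under normexp background correction, which called 41.2% of all genes lower, 6 of the 12 were lower.

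Of 10 genes on the route from interferon gamma to Ciita, 1 was lower, a share of 10% against 13.2% of all genes. Ifngr1, a chain of the interferon gamma receptor, changed by -1.21 ± 0.20 (SE; limma, adjusted p = 0.000292). Irf1, a transcription factor that carries the signal to the Ciita gene, changed by -0.53 ± 0.28 and did not pass (SE; limma, adjusted p = 0.185). The Ifng probe was well above background on no normal gland array and on 1 carcinoma array.

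Leukocyte markers moved in the same direction as the members, and their part in the members' levels was not tested. Of 10 pan-leukocyte genes 8 were lower, of 19 macrophage genes 12, of 11 dendritic cell genes 7, of 14 T cell genes 7 and of 9 B cell genes 5, and none of these was higher. These shares run from 50% to 80%, against 13.2% of all genes called lower. The largest changes past the threshold were those of Cd163 among macrophage genes (-3.20 ± 0.50) and Batf3 among dendritic cell genes (-2.26 ± 0.47; SE, limma, adjusted p of 0.000167 and 0.00235). Pou2af1 led the B cell genes (-3.28 ± 0.69), Cd2 the T cell genes (-2.29 ± 0.59) and Laptm5 the pan-leukocyte genes (-1.84 ± 0.34; SE, limma, adjusted p of at most 0.00925). Ptprc, the common leukocyte antigen, changed by -1.05 ± 0.37 (SE; limma, adjusted p = 0.0475), a call lost when any of 15 samples was left out. Csf1r, the receptor for macrophage colony-stimulating factor, changed by -0.99 ± 0.38 (SE; limma, adjusted p = 0.0643). With array brightness as a covariate, the calls of Batf3, Pou2af1, Cd2, Laptm5 and Ptprc were lost and that of Cd163 held.

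The mean level of the pan-leukocyte list, each gene centred on its mean over all samples, was 0.34 to 1.84 in normal glands and -1.71 to 0.99 in carcinomas. That of the macrophage list was 0.62 to 1.37 and -1.81 to 0.73, that of the dendritic cell list 0.40 to 1.15 and -0.87 to 0.46. The T cell list ranged from -0.07 to 2.86 and from -1.70 to 1.66, and the B cell list from 0.15 to 3.29 and from -1.27 to 0.41. Carcinoma 8, highest for every member, was the highest carcinoma for the pan-leukocyte, macrophage, dendritic cell and T cell lists, and stood 7th of 13 for the B cell list. Carcinoma 11, lowest for RT1-DMa, Cd74 and Ciita, was the lowest carcinoma for all of these lists but that of dendritic cells. Normal gland 5, the highest normal gland for RT1-Ba, RT1-Bb, RT1-Da, RT1-Db1, Cd74 and Ciita, was the highest for the B cell, T cell, pan-leukocyte and lymph node stroma lists. Normal gland 6 was the lowest for the B cell, T cell and lymph node stroma lists, and 5th of 6 for the macrophage and pan-leukocyte lists. Of the defining dendritic cell markers, Xcr1 was well above background on no array, and Flt3 and Itgax had no probe with a matched accession. Clec9a (-0.69 ± 0.41; SE, limma, adjusted p = 0.245) and Zbtb46 were measured and did not pass. Ccr7 passed as lower (-1.01 ± 0.30; SE, limma, adjusted p = 0.0208), a call lost without normal gland 2, 3 or 5.

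The members were also set against leukocyte genes on the same array. The level of each member minus that of Ptprc and of Csf1r was compared between the groups in 16 exact permutation tests over 27132 assignments of the group labels (2-sided, adjusted over the 16). Cd74 relative to Ptprc changed by -0.04 (95% interval -0.88 to 0.82; exact permutation test, adjusted p = 0.981). Cd74 relative to Csf1r changed by -0.09 (95% interval -0.89 to 0.69; exact permutation test, adjusted p = 0.981). Both intervals are wide, so a like change of Cd74 and these markers is not shown. Ciita changed by 0.96 relative to Ptprc (95% interval 0.18 to 1.74) and by 0.91 relative to Csf1r (-0.10 to 1.91), and RT1-DMa by 0.77 relative to Ptprc (-0.02 to 1.63). These 3 did not pass after adjustment (exact permutation test, adjusted p of 0.161, 0.298 and 0.296). Of the 16 pairs, 1 passed: RT1-DMa relative to Csf1r was higher in carcinomas by 0.71 (95% interval 0.35 to 1.08; exact permutation test, adjusted p = 0.0112). In the number-coded samples alone this was 0.54 and did not pass (exact permutation test, adjusted p = 0.128).

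Against Cd74 on the same array, 2 of 7 members differed in change. Relative to Cd74, RT1-DMa was higher in carcinomas by 0.81 (95% interval 0.25 to 1.37; exact permutation test, adjusted p = 0.0227 over 7 tests). Ciita relative to Cd74 was higher by 1.00 (95% interval 0.23 to 1.78; exact permutation test, adjusted p = 0.0491). Both calls were lost under normexp background correction, at 0.74 (adjusted p = 0.0588) and 0.41 (adjusted p = 0.481; exact permutation tests). RT1-Bb, RT1-Da and RT1-Db1 differed from Cd74 by 0.21, 0.06 and -0.18, with 95% intervals of -0.18 to 0.61, -0.38 to 0.50 and -0.55 to 0.19. For RT1-DMb the difference was 0.32 (-0.31 to 0.95), and for RT1-Ba 0.06 (-2.33 to 2.48). None of these 5 passed.

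**Figure D4:**
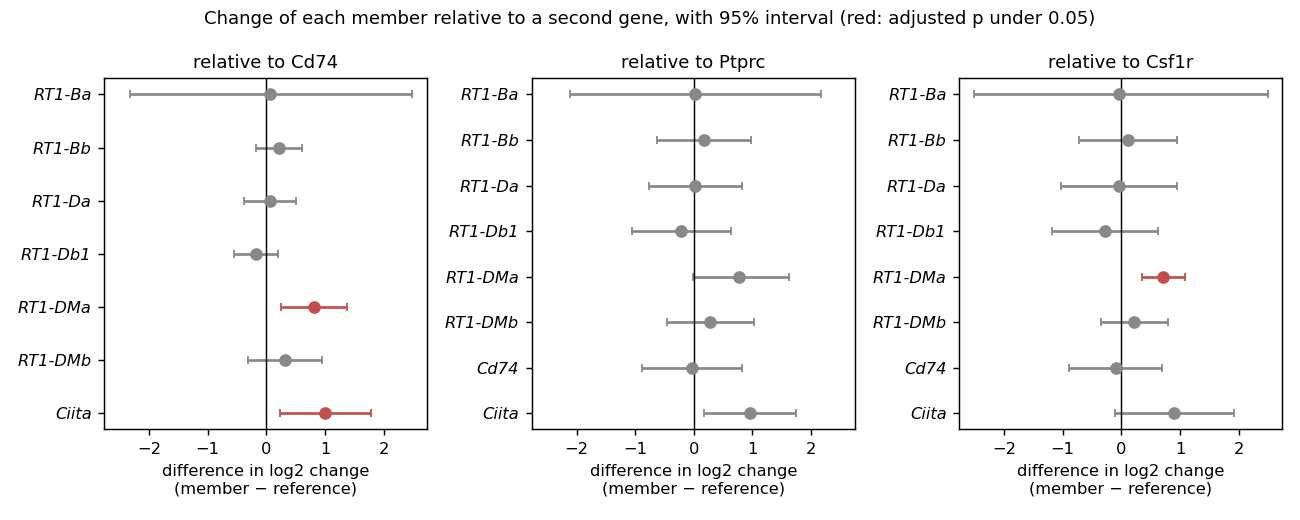
Difference between each member's log2 change and that of Cd74, Ptprc or Csf1r (x axis, with 95% interval from permutation), 1 member to a row. RT1-DMa and Ciita relative to Cd74 and RT1-DMa relative to Csf1r have an adjusted p under 0.05 (red), and the RT1-Ba intervals are more than 4 log2 units wide.

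Across the 13 carcinomas, the members other than RT1-Ba were correlated with each other by Pearson's r, though not all by rank. All 21 pairs among the 7 genes passed by Pearson's correlation (100000 permutations, 2-sided, adjusted over 28 pairs), with r from 0.64 to 0.97, and 12 of them passed by Spearman's rho. No pair of Ciita with another of the 7 passed by rho (permutation test, adjusted p of 0.0639 to 0.602). The share of pairs that would pass among all genes was not computed, so the count is not shown to be particular to the members. The closest pair was RT1-Da with RT1-Db1, the chains of 1 molecule (r = 0.97, rho = 0.93; r = 0.95 without the 2 carcinomas farthest from the median of RT1-Da). Cd74 followed RT1-Bb nearly as closely (r = 0.93, rho = 0.96; 0.89 without the 2 farthest). Cd74 with Ciita had r = 0.81 and rho = 0.60, of which r passed (permutation test, adjusted p = 0.0025) and rho did not (0.0639). None of the 7 pairs with RT1-Ba passed, with r from 0.16 to 0.47.

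Carcinoma 8 carried part of these correlations. Without it 10 of the 21 pairs passed, among them all 6 pairs between RT1-Bb, RT1-Da, RT1-Db1 and Cd74, at r of 0.72 to 0.95. The pairs of RT1-DMb with RT1-Da, RT1-Db1, RT1-DMa, Cd74 and Ciita no longer passed, nor did those of RT1-DMa with RT1-Da and RT1-Db1 or those of Ciita with any member but Cd74. The correlation of Ciita with RT1-DMb went from 0.69 to 0.12. In the 10 carcinomas whose descriptions carry a number code, r of the 21 pairs was 0.68 to 0.99. The 13 carcinomas share 3 slides, and no slide holds the 6 carcinomas needed for a value of its own.

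**Figure D5:**
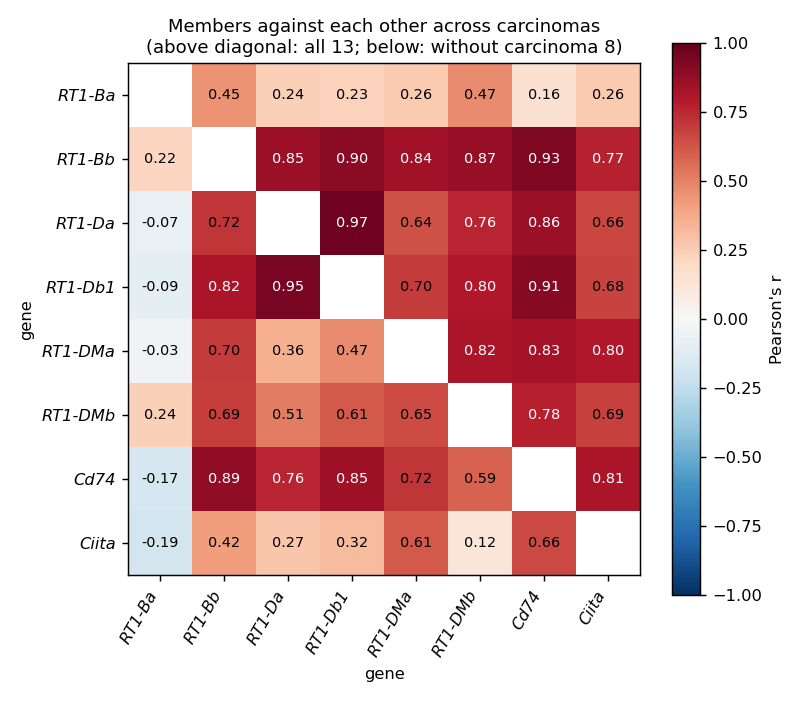
Pearson's r between members across all 13 carcinomas (above the diagonal) and across 12 without carcinoma 8 (below), from blue (-1) to red (1). The block of RT1-Bb, RT1-Da, RT1-Db1 and Cd74 keeps r of 0.72 or more on both sides, whereas the row of Ciita pales below the diagonal and RT1-Ba is pale throughout.

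Cd74 was also set against 8 marker genes across the carcinomas. Of these, 4 passed by r and 0 by rho. Csf1r (r = 0.68, rho = 0.50), Cd3e (0.66, 0.39) and Ptprc (0.63, 0.38) were among those that passed by r (permutation test, adjusted p of 0.0429 to 0.0462), with adjusted p-values for rho of 0.262. Cd68, Cd79b, Epcam and Adipoq did not pass, with r of 0.18 to 0.46. Without the 2 carcinomas farthest from the median of the marker, r was 0.60 for Csf1r, 0.10 for Cd3e and -0.03 for Ptprc. The last 2 relations therefore rest on carcinomas 8 and 11, and without carcinoma 8 alone none of the 8 passed.

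The genes outside the list whose levels were most like the members' were ranked by Pearson's r with the members' mean over the 13 carcinomas, among 12731 genes, as a description. They were Ly49i4 (0.94), Calhm6 (0.90), Sting1 (0.90), Ceacam19 (0.86), Gpr18 (0.85), Gimap7 (0.83), Cxcr3 (0.82) and Slc8b1 (0.80). Ly49i4 belongs to a family of natural killer cell receptors, Sting1 is the adaptor of cytosolic DNA sensing and Cxcr3 is a chemokine receptor of activated T cells. Of the 8, Calhm6 (-1.85 ± 0.47), Gpr18 (-1.41 ± 0.33) and Gimap7 (-2.25 ± 0.41) were lower in carcinomas (SE; limma, adjusted p of at most 0.00897). The other 5 did not pass. When RT1-Ba was left out of the mean, Cox15, Klra2 and Wnt7b took the places of Gpr18, Gimap7 and Cxcr3. Across the 6 normal glands, r with the members' mean was -0.86 for Slc8b1, 0.64 to 0.97 for the others of the first 8 and -0.71 for Cox15. Carcinoma 8, far above the other carcinomas in the members' mean, was kept in this ranking, and r without it was not computed.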

How the data were processed

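RNA of 6 normal glands and 13 carcinomas was measured on arrays whose images were quantified in Feature Extraction 10.7.3.1 (Agilent; per the submitters' processing notes). Per the file headers, the scanner files hold spot intensities after background subtraction and detrending, and the authors also deposited a table of log2 values, used as an alternative. Control and outlier spots were left out, and log2 intensity was taken relative to the array's 75th percentile. Probes were kept when well above background on at least 6 arrays, and the brightest probe of a gene was used. Groups were compared with limma 3.58.1 (R 4.3.3; trended variances, 2-sided, Benjamini-Hochberg over 12789 genes, threshold 0.05), after tests on simulated data. Ratios used exact permutation tests and correlations 100000 permutations (scipy 1.17.1).

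The members and gene lists were chosen with earlier results of these data known. Named genes were the members, from each list the 3 genes of largest called change in its more frequent direction and the 1 largest in the other (of lists with none called, the 2 largest), genes always named such as Ptprc and Csf1r, and the 8 genes most correlated with the members; only some of these are described, and 1 is not reported here. Probes were named through RefSeq accessions, and array annotation (rn4) and gene table (GRCr8) rest on different assemblies, so no probe or gene positions are given, only those of the GRCr8 promoter windows. The files hold no mean-signal column, so normexp used the median signal. Alternatives covered background, scaling, filter, probe choice, slide, scan day, code series, brightness, variance model, replicate block and each sample left out. Precision is limited by the number of arrays.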

Additional observations from a re-analysis of the deposited data

How the results depend on the processing

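The alternatives concern the counts of genes called and the changes of the members, and the cause of each shift was not tested. The direction of RT1-Ba held in all 36 alternatives run for it and that of RT1-Bb, RT1-Da, RT1-Db1, RT1-DMb and Cd74 in 36 of 37. RT1-Db1 was called in 25 of 37, with adjusted p-values (limma) of 0.00268 to 0.952 over them. Leaving out each sample in turn, the members called lower were 0 to 5, the genes called over all tested 1087 to 1830 lower and 664 to 1440 higher, and the change of Ciita -0.35 to 0.25. Per list, leaving out 1 sample gave 6 to 7 other pathway genes lower, 0 to 2 promoter factors lower and 0 to 1 higher, 1 to 2 interferon gamma genes, 2 to 5 class I genes, 4 to 7 dendritic cell genes, 9 to 15 macrophage genes, 4 to 6 B cell genes, 3 to 8 T cell genes and 3 to 9 pan-leukocyte genes lower, and 1 to 3 epithelial genes higher. Without carcinoma 8, 10 member pairs and 0 marker pairs passed, and r of RT1-Ba became -0.075 with RT1-Da, -0.090 with RT1-Db1, -0.034 with RT1-DMa, -0.17 with Cd74 and -0.19 with Ciita. The number of arrays, with 1 normal gland on slide 3, and the brightness gap between groups limit what these comparisons can show.

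Normexp background correction gave 5263 genes lower (930 higher) and a median change of -0.37 over all genes, against -0.85 for the members. It gave 11 other pathway genes, 6 promoter factors, 3 interferon gamma genes and 13 T cell genes lower. Under it 0 members differed from Cd74 and 1 marker correlated with Cd74, while the change of RT1-Ba relative to Cd74 was -0.017 and the change of RT1-Ba relative to Ptprc was -0.024. Quantile normalisation gave 0 members lower, 4 other pathway genes lower and 1 higher, and a change of 0.038 for Ciita. The split of calls was 1447 lower to 1570 higher there. Without the filter on dim probes 3 promoter factors were lower. With probes well above background on all arrays there were 2 promoter factors, 4 dendritic cell, 1 B cell, 7 adipocyte and 3 lymph node stroma genes. The mean of a gene's probes gave 0 members lower and 1 promoter factor higher. Variances without a trend gave 1 epithelial gene higher.

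Slide as a block gave 0 members lower, 3 promoter factors lower and 1 epithelial gene higher, scan day as a block 2 promoter factors lower, and code series as a block 2 members. The number-coded samples alone gave 3 members and 2 promoter factors lower and a change of 0.070 for Ciita. There 0 members differed from Ptprc or Csf1r and 0 markers correlated with Cd74 (r of -0.32 for Cd79b). The change of RT1-Da relative to Cd74 was -0.017 and that relative to Ptprc -0.24. The others were -0.20 for RT1-Ba relative to Ptprc, and -0.16 for RT1-Bb and -0.11 for RT1-DMb relative to Csf1r. Without the 2 carcinomas farthest from the median, r was -0.22 for RT1-Ba with Ciita, -0.027 for Ptprc with Cd74 and -0.21 for Cd79b with Cd74. Leaving out carcinoma 8 and normal gland 6 together, chosen after seeing the data, gave 5 members and 3 promoter factors lower and 1 epithelial gene higher.

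With array brightness as a covariate, 174 genes were lower and 11 higher, and RT1-DMa changed by 0.64. Lower were 0 members, 1 other pathway gene, 0 promoter factors, 0 class I, 0 dendritic cell, 1 macrophage, 0 B cell, 0 T cell, 0 pan-leukocyte, 1 lymph node stroma and 2 endothelial genes, and 0 epithelial genes were higher. At an unadjusted p under 0.05 this fit (limma) held 0 members and 1843 genes.

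Within slide 1, 534 genes were lower and 153 higher: 0 members, 2 other pathway genes, 0 promoter factors, 0 interferon gamma, 1 class I, 2 dendritic cell, 6 macrophage, 1 B cell, 0 T cell, 1 pan-leukocyte, 3 lymph node stroma and 4 endothelial genes lower and 1 epithelial gene higher, with Ciita at 0.27. Within slide 2, 267 were lower and 45 higher: 0 members, 1 other pathway gene, 0 promoter factors, 0 interferon gamma, 0 class I, 1 dendritic cell, 1 macrophage, 3 B cell, 3 T cell, 1 pan-leukocyte, 7 adipocyte and 1 endothelial gene lower and 0 epithelial genes higher. Within slide 3, 31 were lower and 0 higher. There 5 adipocyte genes were lower, and 0 genes of the members and of the other pathway, promoter factor, interferon gamma, class I, dendritic cell, macrophage, B cell, T cell, pan-leukocyte, lymph node stroma and endothelial lists were lower, and 0 epithelial genes higher. The changes within slide 3 were 0.66 for RT1-Bb, 0.72 for RT1-Da, 0.42 for RT1-Db1, 0.96 for RT1-DMa, 0.49 for RT1-DMb, 0.73 for Cd74 and 0.41 for Ciita. At an unadjusted p under 0.05 (limma) there were 5, 5 and 0 members within slides 1, 2 and 3.

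Normal glands and carcinomas share the numbers 1 to 6 in the labels, but same-numbered samples did not deviate together: their correlations ran from -0.11 to 0.24, and 2 of 12 samples correlated best with their own number. With the number as a replicate block, 5 members, 0 promoter factors, 2 interferon gamma genes and 3 B cell genes were lower. In the same 12 samples with group alone, a fit added after seeing the data, there were 3 members, 2 promoter factors, 2 interferon gamma genes and 3 B cell genes. The block moved the count of genes called over all tested from 20.2% to 17.9%.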

Other observations

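Of 21 genes of the MHC class I pathway, which displays peptides of the cell's own proteins, 4 were lower in carcinomas and none was higher. That share was 19.0%, against 13.2% of all genes called lower, and the list's median change was -0.45. B2m, the shared light chain of class I molecules, changed by -1.11 ± 0.20 (SE; limma, adjusted p = 0.000852). Its call held in each of the 19 fits that left out 1 sample (adjusted p of at most 0.00411) and was lost with brightness as a covariate. Within slides 1, 2 and 3, with fewer arrays, the change was -1.07, -1.39 and -0.76. Psmb10, a subunit of the immunoproteasome, changed by -0.96 ± 0.22 (SE; limma, adjusted p = 0.00439). The class I heavy chain genes RT1-CE10 (-1.10 ± 0.40) and RT1-A1 (-0.82 ± 0.24) passed with adjusted p of 0.0487 and 0.0186 (SE; limma). Both calls were lost in some fits that left out 1 sample, RT1-CE10 in 13 and RT1-A1 in those without normal gland 3 or 4. Class I heavy chains are a family of near copies, so probes named for 1 of them are uncertain. Tap1, Tap2, Psmb8 and Psmb9, which are neighbours of the class II genes and inducible by interferon, had changes of 0.32, 0.07, -0.17 and -0.16 and did not pass.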
